A study of Mus musculus with 9 samples.

Results

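The gene set described here holds 70 genes that were near silent in untreated and in oxyhemoglobin-treated cells and were detected in every library of cells given oxyhemoglobin together with NTR1. The members were taken from a table of 54232 genes by their level in CPM, the count of a gene per 1000000 counts of its library. A member had a mean under 0.5 CPM in the control libraries, a mean under 0.5 CPM in the Hb libraries and at least 1 CPM in each of the 3 Hb+NTR1 libraries. Symbols that begin with Gm and a digit or with Hist, Hox, Col, Itg, Gbp, Sema or mt-, and symbols that end in Rik, were left out. Without those exclusions 91 genes met the limits. The members were thus chosen by their CPM in all 3 groups, and the differences of the members between Hb+NTR1 and the other groups are given as descriptions, without a test.

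Messenger RNA was sequenced from wild-type cells labelled HT22, a mouse line derived from hippocampal neurons, for which the labels also give the cell type name HT-4. Control cells were left untreated, Hb cells received oxyhemoglobin, the oxygen-carrying protein set free when red cells break down, and Hb+NTR1 cells received oxyhemoglobin and NTR1. Each group has 3 libraries, the series title spells the added agent NGR1, and no group received it alone, so the agent cannot be told apart from its combination with oxyhemoglobin. All groups are 1 line, the labels do not say whether libraries came from separate cultures, and p-values then measure the spread between libraries, which may be technical.

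Cell lines keep most tissue-restricted genes silent. DNA methylation, Polycomb complexes and histone deacetylases are the best known means of such silencing, and nuclear receptors and stress-regulated factors are among the proteins that can activate a silent gene. Clathrin-coated pits, where the member Reps2 acts, bring growth factor receptors into the cell, and the selectin Selp captures blood cells at vessel walls.

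Library totals ran from 13435891 to 16918242 counts. A gene without a count could have had up to 3 counts, which is 0.177 to 0.223 CPM per library, and this limit covers counting error only. The Hb+NTR1 libraries stood far from the other 6: of 13810 genes tested with edgeR's quasi-likelihood test, 62.3% passed a Benjamini-Hochberg adjusted p of 0.05 against Hb and 63.6% against control, whereas 3.65% passed in Hb against control. The labelled cell type was weakly marked, since 14 of 16 neuronal markers were under 1 CPM in control, 5 of the 16 had no count in any library, and Tubb3 and Syn1 averaged 31.8 and 24.1 CPM in control. Summed fibroblast markers, which include Col1a1 and Col1a2, lay between 13583 and 14518 CPM in control, between 11196 and 12809 in Hb and between 1306 and 1430 with NTR1 added, and 7 of 7 tested markers fell against both other groups. The part of this shift in the values of the 70 genes was not tested. In bulk RNA, fewer cells of a type and less RNA per cell cannot be told apart, and the same holds for more cells and more RNA per cell.

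The set was small in RNA. The members summed to 13.8 ± 0.618 CPM in control (SD, n = 3), 15.8 ± 2.16 in Hb and 168 ± 6.03 in Hb+NTR1. The median member averaged 1.70 CPM in Hb+NTR1 (range 1.13 to 9.01), 0.215 in Hb (0 to 0.481) and 0.161 in control (0 to 0.495). Only 6 of 70 members reached a mean of 5 CPM in Hb+NTR1 and 45 stayed under 2. Of the 6 control and Hb libraries, 2 members had no count in any, 16 had none in at least 3, and 29 had a count in every one. For control and Hb the rule limited group means only, and all 70 had their lowest Hb+NTR1 library above their highest control or Hb library. Among all tested genes the same order held for 31.5%, a share the rule prevents from being compared with that of the members.

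**Figure D1:**
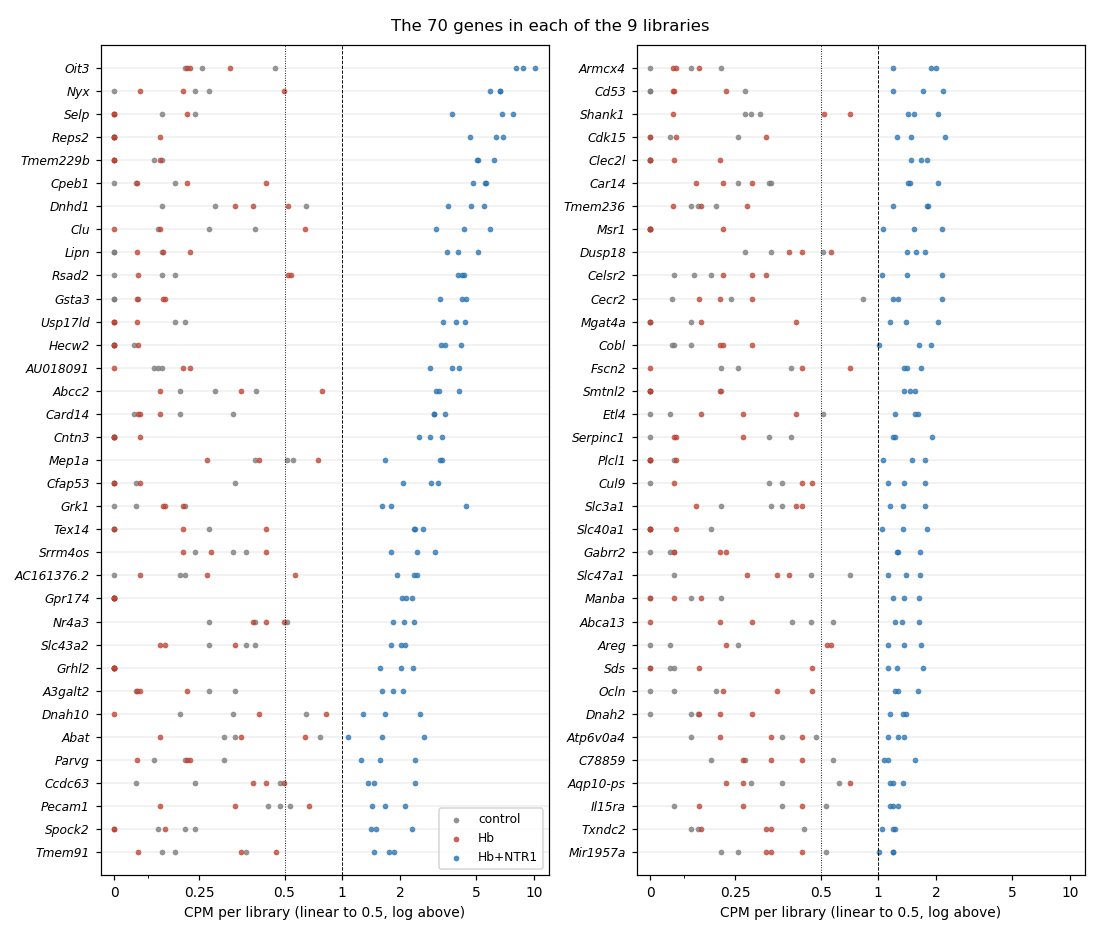
CPM of the 70 genes in each of the 9 libraries, ordered by their mean in Hb+NTR1, on an axis that is linear up to 0.5 and logarithmic above. Each dot is a library, the dotted line is the 0.5 CPM limit on the group mean and the dashed line the 1 CPM limit, and the Hb+NTR1 dots run from just above 1 to about 10 CPM with no dot of another group among them.

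A group of 3 genes stood for the set as its markers, and each had few counts outside Hb+NTR1. Reps2, whose product carries an EH domain and acts in endocytosis of growth factor receptors, had 0, 0 and 0 counts in control, 0, 2 and 0 in Hb and 90, 65 and 99 in Hb+NTR1. Tmem229b, a membrane protein of unclear function, had 2, 0 and 2 counts in control, 0, 2 and 0 in Hb and 72, 71 and 89 in Hb+NTR1. Selp, P-selectin, had 4, 0 and 2 counts in control, 3, 0 and 0 in Hb and 111, 52 and 98 in Hb+NTR1. All 3 were high in every Hb+NTR1 library, none overlapped with another group, and the lowest Selp library had less than that gene's other 2 by a wide margin. The 3 Hb+NTR1 count columns carry no replicate number that ties them to a sample, so they are given in the order of the table.

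In Hb+NTR1, Reps2 averaged 5.97 ± 1.18 CPM (SD, n = 3), Tmem229b 5.46 ± 0.660 and Selp 6.13 ± 2.14. Against the 2 counts of the Hb group, Reps2 was 126-fold higher with a 95% counting interval of 34.6 to 1050. Against the empty control group it was at least 93.4-fold higher, taking 3 counts over the group as the limit. The ratio over Hb was 115 for Tmem229b (31.6 to 959) and 86.6 for Selp (29.3 to 423). Per kilobase of exon, which allows genes to be compared, Selp had 1.39 CPM, Tmem229b 1.15 and Reps2 0.720. The intervals cover counting error on counts summed over each group, not the spread between libraries, and the rule chose the genes by these same values. The intervals overlap widely, so the order of the 3 ratios is not resolved.

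The promoters of these 3 genes are shown because they differ in kind although the genes were chosen for 1 expression pattern. Each runs from 250 bases before to 50 bases after the start of the RefSeq transcript on GRCm38.p6, 5′ to 3′ on the strand of the gene. Capitals mark GGGCGG, the core of an SP1 box, on either strand, and in Selp TGANTCA, the core of an AP-1 site. Reps2 lies at chrX:162643609-162643908 on the minus strand, Tmem229b at chr12:79007228-79007527 on the minus strand and Selp at chr1:164115014-164115313 on the plus strand.
Reps2: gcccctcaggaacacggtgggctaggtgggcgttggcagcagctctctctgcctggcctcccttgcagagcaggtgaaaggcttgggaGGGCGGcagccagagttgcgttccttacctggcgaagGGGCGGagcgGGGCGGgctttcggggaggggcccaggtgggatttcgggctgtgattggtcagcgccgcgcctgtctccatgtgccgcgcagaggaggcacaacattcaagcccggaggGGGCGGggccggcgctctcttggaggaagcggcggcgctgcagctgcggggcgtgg
Tmem229b: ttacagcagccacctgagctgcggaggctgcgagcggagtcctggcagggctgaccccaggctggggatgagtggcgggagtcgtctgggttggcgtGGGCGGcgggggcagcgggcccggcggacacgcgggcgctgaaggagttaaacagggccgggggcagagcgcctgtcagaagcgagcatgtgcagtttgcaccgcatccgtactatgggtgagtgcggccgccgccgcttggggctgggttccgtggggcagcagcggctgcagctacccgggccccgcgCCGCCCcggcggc
Selp: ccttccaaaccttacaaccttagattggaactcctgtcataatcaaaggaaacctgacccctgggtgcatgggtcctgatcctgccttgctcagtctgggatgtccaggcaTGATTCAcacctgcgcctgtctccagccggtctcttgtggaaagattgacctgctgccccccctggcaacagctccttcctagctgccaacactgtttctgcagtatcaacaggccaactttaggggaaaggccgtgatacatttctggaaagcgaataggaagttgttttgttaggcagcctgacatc

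The Reps2 and Tmem229b promoters were GC-rich, at 69.7% and 72.7%, with 4 and 2 SP1 cores. Their CpG ratio, the number of CG pairs over the number that base composition gives, was 0.694 and 0.813. The Selp promoter had 51.7% GC, a CpG ratio of 0.202, no SP1 core and 1 AP-1 core. A match to a motif is a description of letters, and whether a factor bound there was not measured.

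The other 67 genes fall into mixed classes. Sorting by known function, done by hand with the values in view, gave 10 genes without a clear class, 9 enzymes, 8 genes of membrane transport, 7 each for signalling and ubiquitin, for nervous system and retina, and for dynein, cilia and germ cells, 6 each for adhesion and for immune functions, 5 secreted proteins, 3 of transcription and chromatin and 2 of the cytoskeleton; these counts include the 3 markers. By annotation, 65 of 69 matched members were protein-coding, and the others were an antisense RNA, a long intergenic RNA, a pseudogene and a microRNA. AC161376.2 had no match there, and the authors' deposited table places it at chr16:31590196-31593220 on the minus strand.

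Among secreted proteins, Oit3 had the highest CPM of the whole set. Oit3 encodes a zona pellucida domain protein known from liver. It had 8, 4 and 3 counts in control, 3, 5 and 3 in Hb and 125, 141 and 116 in Hb+NTR1. The Hb+NTR1 mean was 9.01 ± 1.01 CPM, which was 34.6-fold over Hb with a counting interval of 19.1 to 69.8. Per kilobase of exon it reached 3.23 CPM, second to the short microRNA gene Mir1957a at 17.1. Clu, clusterin, an extracellular chaperone found in many tissues, had 7, 2 and 4 counts in control, 9, 2 and 0 in Hb and 44, 82 and 62 in Hb+NTR1. Its Hb libraries were uneven, but all stayed below the lowest Hb+NTR1 library. The remaining secreted members were near the lower limit: Spock2, a matrix proteoglycan, averaged 1.74 CPM in Hb+NTR1, Serpinc1, antithrombin, 1.44 and Areg, amphiregulin, a ligand of the EGF receptor, 1.39.

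A total of 6 members belong to adhesion and junctions. Besides Selp they are Cntn3, a contactin of neuronal surfaces, Celsr2, a cadherin of planar polarity, Parvg, an adaptor of integrin-linked kinase in blood cells, Pecam1, an adhesion molecule of endothelium and platelets, and Ocln, occludin of tight junctions. Cntn3 had no count in control, 0, 0 and 1 in Hb and 47, 35 and 41 in Hb+NTR1, a mean of 2.90 ± 0.404 CPM. This gene was close to empty outside Hb+NTR1, whereas Pecam1 was not. Pecam1 had 9, 7 and 7 counts in control, 5, 2 and 9 in Hb and 30, 20 and 24 in Hb+NTR1, and its control mean of 0.490 CPM lay just inside the limit. Celsr2, Parvg and Ocln averaged between 1.36 and 1.74 CPM in Hb+NTR1.

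Vascular and blood cell genes were sparse beyond these. Of the 12 endothelial markers that are not members, Egfl7 alone passed the filter on low counts, and it did not pass the test (log2 fold change -0.42 ± 0.47 SE against Hb, edgeR adjusted p = 0.451). The endothelial markers without members summed to 3.36 to 4.79 CPM in Hb+NTR1, 2.08 to 2.70 in Hb and 1.88 to 2.60 in control. The platelet markers without Selp summed to 13.6 to 16.8 CPM in Hb+NTR1, 12.6 to 16 in Hb and 8.12 to 12.5 in control. Of the 3 tested platelet markers besides Selp, 1 was higher, 1 lower and 1 not past the threshold against Hb. Among all tested genes 30.7% were higher and 31.6% lower. In that list Itga2b averaged 11 CPM in Hb and 10.5 in Hb+NTR1. The 1 higher was Gp1ba, a receptor of von Willebrand factor, which went from 1.19 to 3.96 (log2 1.71 ± 0.32, edgeR adjusted p = 5.22e-05). Kdr, Tie1, Cldn5, Erg, Pf4 and Gp6, which define these cell types, were at or near 0 in every group.

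Selectin partners moved in both directions. Of 20 genes listed for selectins and vascular adhesion besides Selp, 8 were tested, of which Pecam1 is a member, and of the other 7 against Hb 3 were higher, 2 lower and 2 not past the threshold; the counts against control were the same. Selplg, the counter-receptor of P-selectin, had 0, 0 and 0 counts in control, 1, 0 and 0 in Hb and 12, 11 and 10 in Hb+NTR1, so that it could be tested through Hb+NTR1 alone, and its call, 1 of the 3 higher, is no evidence. B4galt1, a galactosyltransferase that builds selectin ligands, rose from 49.1 to 83.9 CPM (log2 0.75 ± 0.07). Vcam1 and Cd34, expressed by the untreated cells, fell from 124 to 32.0 and from 256 to 67.1 CPM (log2 -1.97 ± 0.07 and -1.96 ± 0.06). Over all tested genes, 30.7% were higher and 31.6% lower against Hb.

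The immune members were Rsad2, Card14, Gpr174, Cd53, Msr1 and Il15ra. Rsad2, viperin, an antiviral enzyme induced by interferon, had 3, 0 and 2 counts in control, 1, 8 and 7 in Hb and 57, 59 and 62 in Hb+NTR1. Card14, a scaffold protein of NF-kB signalling known from skin, had 1, 3 and 5 counts in control, 1, 2 and 1 in Hb and 49, 42 and 43 in Hb+NTR1. Both had even Hb+NTR1 libraries, at means of 4.19 ± 0.161 and 3.16 ± 0.258 CPM. Gpr174, a lysophosphatidylserine receptor of lymphocytes, had no count in any of the 6 control and Hb libraries and 29, 30 and 33 in Hb+NTR1. That makes it at least 30.5-fold higher than Hb and at least 33.8-fold higher than control. Cd53, a leukocyte tetraspanin, and Msr1, a scavenger receptor of macrophages, averaged 1.70 and 1.58 CPM in Hb+NTR1, and Il15ra, which presents interleukin 15, averaged 1.20. Macrophage markers gave a mixed reading beside them. The 13 markers summed to 46.5 to 48.3 CPM in Hb+NTR1, 5.73 to 6.51 in Hb and 3.61 to 4.51 in control, and 12 of them were under 1 CPM in every group's mean. Nearly all of the sum was 1 gene: Cd68 went from 5.24 to 45.9 CPM (log2 3.10 ± 0.12, adjusted p = 2.81e-16), while C1qa, Tyrobp, Csf1r and Ptprc stayed at or near 0. The part of other cell types in these values was not tested.

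Of 13 tested NF-kB targets, 6 were higher and 6 lower in Hb+NTR1 against Hb, and 4 and 7 against control. The shares of all tested genes were 30.7% higher and 31.6% lower against Hb, and 31.4% and 32.2% against control. Ccl2, a monocyte chemokine, rose from 11.8 to 35.4 CPM (log2 1.55 ± 0.12). Relb, a subunit of the factor itself, fell from 19.0 to 7.99 CPM (log2 -1.28 ± 0.13). The median log2 change of the list against Hb was -0.29. Il6, 1 of the 6 higher, is uncertain: the Il6 log2 fold change, Hb+NTR1 against Hb, was 1.30 ± 0.53 (edgeR adjusted p = 0.0369), and it was not called by DESeq2 (adjusted p = 0.0999), without a filter on low counts (0.0606), without Hb replicate 1 or 2 (0.188 and 0.0793) or without any of the Hb+NTR1 libraries (0.0549 to 0.117).

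The 9 enzymes act in unrelated pathways. Lipn, a lipase that in humans is known from skin, had 0, 0 and 2 counts in control, 2, 1 and 3 in Hb and 57, 49 and 73 in Hb+NTR1. Gsta3, an alpha-class glutathione transferase that detoxifies lipid peroxidation products, had 0, 0 and 1 counts in control, 2, 1 and 2 in Hb and 46, 59 and 63 in Hb+NTR1. Mep1a, a metalloprotease of gut and kidney, had 7, 8 and 8 counts in control, 6, 4 and 10 in Hb and 47, 45 and 24 in Hb+NTR1. Lipn and Gsta3 were nearly empty outside Hb+NTR1, and Mep1a, at 0.495 CPM in control, was the member closest to the upper limit. The other enzymes averaged 1.37 to 1.84 CPM in Hb+NTR1. They are A3galt2, which makes an isoglobo-series glycolipid, Mgat4a, which branches N-glycans, Manba, a lysosomal mannosidase, Abat, which degrades the transmitter GABA, Car14, a carbonic anhydrase, and Sds, which breaks down serine.

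Members of membrane transport include the multidrug exporter Abcc2, which moves conjugated bilirubin and glutathione conjugates out of liver cells. Abcc2 had 5, 3 and 6 counts in control, 11, 2 and 5 in Hb and 44, 57 and 46 in Hb+NTR1, a mean of 3.47 ± 0.535 CPM. Slc40a1, ferroportin, the cellular iron exporter, had 3, 0 and 0 counts in control, 0, 0 and 1 in Hb and 19, 25 and 15 in Hb+NTR1. Ferroportin was thus near empty in cells given oxyhemoglobin alone and low, at 1.39 ± 0.373 CPM, with NTR1 added. The remaining transport members averaged 1.22 to 1.98 CPM in Hb+NTR1: Slc43a2, an amino acid transporter, Slc3a1, the heavy chain of a cystine transporter, Slc47a1, an organic cation exporter, Atp6v0a4, a kidney subunit of the proton pump, Abca13, a lipid transporter, and the pseudogene Aqp10-ps.

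Retinal and neuronal genes formed a class of 7. The listed neuronal markers, none of them a member, summed to 27.6 to 30.7 CPM in Hb+NTR1, 58.4 to 66.7 in Hb and 56.3 to 57.1 in control, and of the 3 tested Tubb3 and Syn1 fell and Elavl3 rose. Elavl3, at 0.516 CPM in control and 0.475 in Hb, could pass the filter on low counts through Hb+NTR1 alone, so its call is no evidence. Nyx, nyctalopin, a surface protein of retinal bipolar cells, had 4, 0 and 4 counts in control, 7, 3 and 1 in Hb and 94, 93 and 84 in Hb+NTR1. Cpeb1, which regulates polyadenylation and translation of stored mRNA, had 3, 1 and 0 counts in control, 3, 1 and 6 in Hb and 80, 78 and 69 in Hb+NTR1. Grk1, rhodopsin kinase, had 0, 1 and 3 counts in control, 2, 3 and 2 in Hb and 63, 25 and 23 in Hb+NTR1. Nyx and Cpeb1 were even across the Hb+NTR1 libraries, at 6.39 ± 0.444 and 5.35 ± 0.455 CPM. Grk1 was the least even of the 70, with a ratio of 2.76 between its highest and lowest Hb+NTR1 CPM, where the median member had 1.43. Its mean of 2.61 ± 1.59 CPM rests on 1 library more than on the others. Gabrr2, a GABA receptor subunit of retina, Shank1, a scaffold of excitatory synapses, and Fscn2, a photoreceptor fascin, averaged 1.39 to 1.67 CPM. Srrm4os, the antisense RNA of the neuronal splicing regulator Srrm4, averaged 2.42 CPM.

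Genes of cilia and germ cells were led by Dnhd1, a dynein heavy chain relative needed in sperm tails, with 5, 10 and 2 counts in control, 5, 6 and 7 in Hb and 78, 50 and 67 in Hb+NTR1. Cfap53, which acts in motile cilia, had 6, 1 and 0 counts in control, 0, 0 and 1 in Hb and 41, 29 and 45 in Hb+NTR1. The axonemal dynein chains Dnah10 and Dnah2 averaged 1.84 and 1.29 CPM. Tex14, of the bridges between germ cells, averaged 2.47, Ccdc63, a sperm tail protein, 1.74 and Txndc2, a sperm thioredoxin, 1.16. Each of these averaged under 0.5 CPM in both other groups, as the rule required.

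Signalling and ubiquitin members besides Reps2 were Hecw2, Usp17ld, Cdk15, Dusp18, Plcl1 and Cul9. Hecw2, a HECT-type ubiquitin ligase, had 1, 0 and 0 counts in control, 1, 0 and 0 in Hb and 49, 58 and 47 in Hb+NTR1. Usp17ld, of a multicopy family of deubiquitinases, had 3, 0 and 3 counts in control, 0, 1 and 0 in Hb and 62, 55 and 48 in Hb+NTR1. Both were near empty in the Hb group. The sources used here do not say how reads with several matches were counted, so Usp17ld, Gsta3 and Aqp10-ps are uncertain. Plcl1, an inactive relative of phospholipase C, had 1 count in control and 1 in Hb against 15, 21 and 25 in the Hb+NTR1 libraries. Cdk15, Dusp18 and Cul9, a kinase, a phosphatase and a cullin, averaged 1.41 to 1.65 CPM in Hb+NTR1.

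Transcription and chromatin were represented by Nr4a3, Grhl2 and Cecr2. Grhl2, a grainyhead factor that drives epithelial genes, had no count in control or Hb and 33, 22 and 29 in Hb+NTR1, at least 27.9-fold over Hb and at least 30.9-fold over control. Nr4a3, an orphan nuclear receptor of the immediate early response, had 7, 8 and 4 counts in control, 7, 6 and 6 in Hb and 26, 33 and 30 in Hb+NTR1. Grhl2 was empty and Nr4a3 merely low in the other groups. Cecr2, a bromodomain protein of chromatin remodelling, averaged 1.54 ± 0.532 CPM in Hb+NTR1. Beside Grhl2, the epithelial marker Cdh1 fell from 20.8 to 2.0 CPM (log2 -3.40 ± 0.16, adjusted p = 1.37e-14), and Epcam, Krt8 and Krt18 were at or near 0. The epithelial markers other than Grhl2 summed to 2.24 to 2.86 CPM in Hb+NTR1, 20.9 to 24.7 in Hb and 13.36 to 16.5 in control.

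The rest were Cobl, an actin nucleator, Smtnl2, a smoothelin relative, and genes without a clear class. AU018091 led the latter after Tmem229b, with 2, 2 and 2 counts in control, 0, 3 and 3 in Hb and 53, 57 and 41 in Hb+NTR1. Clec2l, a lectin-like protein, had no count in control, 1, 3 and 0 in Hb and 21, 25 and 24 in Hb+NTR1. Armcx4, Tmem91, Tmem236, Etl4, C78859 and AC161376.2 averaged 1.25 to 2.26 CPM in Hb+NTR1. Mir1957a, a microRNA gene inside an intron of the glucose transporter gene Slc2a1, had 9, 4 and 3 counts in control, 5, 5 and 6 in Hb and 17, 14 and 17 in Hb+NTR1. These are reads of long RNA libraries, not of mature microRNA, and the host gene Slc2a1 went from 141 to 223 CPM (log2 0.64 ± 0.07, adjusted p = 5.51e-08).

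The limits cut through a continuous range of levels. Just inside the 1 CPM limit, the lowest Hb+NTR1 library of Cobl and Mir1957a had 1.00 CPM, and that of Celsr2, Slc40a1 and Txndc2 had 1.05. Just outside it, Pde8a, Rnaset2a, Snord89, Plekha7 and Dhrs3 had 0.987 CPM. Just inside the 0.5 CPM limit, the larger of the control and Hb means was 0.495 for Mep1a, 0.490 for Abca13 and Pecam1, 0.480 for Abat and 0.474 for Dusp18. Just outside were Myrfl at 0.515, Elavl3 at 0.516, Robo3 at 0.518, Jag2 at 0.520 and Prr5l at 0.523. Myrfl and the neuronal Elavl3 reached 4.24 and 1.95 CPM in Hb+NTR1 and would belong under a slightly wider limit.

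Oxyhemoglobin alone left no reading on the members. The rule held both the control and the Hb mean under 0.5 CPM, members passed the filter on low counts through Hb+NTR1, and at these counts a call in Hb against control was hardly possible, so the 0 of 70 members past edgeR's adjusted p of 0.05 says nothing about them. Over all tested genes 3.65% passed in that comparison, 1.88% higher and 1.77% lower in Hb. At an unadjusted p under 0.05 there were 5 members by edgeR and 5 by DESeq2, which called 0 and gave no adjusted p for 53. The share of all tested genes at that unadjusted p is not given here, so nothing is read from these counts. The smallest edgeR adjusted p of a member was 0.186. The 5 by edgeR were Rsad2, Clec2l, Areg and Ocln, higher in Hb, and Abca13, lower. Areg, for example, had 1, 4 and 0 counts in control and 8, 8 and 3 in Hb, and its libraries overlapped. The log2 estimates of the members ran from -2.32 to 3.59.

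The same limits were also turned around. With at least 1 CPM in each control and Hb library and a mean under 0.5 in Hb+NTR1, and the same symbols left out, 53 genes qualified. That rule asks for 1 CPM in more libraries and a low mean in fewer groups, so the 53 cannot be set against the number of members. With Hb as the single high group 3 qualified, and with control as the single high group 0. A level under 0.5 CPM in control with at least 1 CPM in every Hb and Hb+NTR1 library was met by 1 gene.

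The authors' deposited table of Hb+NTR1 against control lists 691 genes, all with an absolute log2 fold change above 2, and 59 of the 70 members are among them. The rule used the levels of both groups and so largely fixes this count, from which nothing is read; of all genes tested here the authors' deposited table lists 1.61% as higher. In the authors' deposited table Reps2 has a log2 fold change of 8.92, Tmem229b 5.94 and Selp 5.52. The 11 members it lacks all had an estimated log2 change under 2 against control here; they include Abat, Pecam1, Dusp18, Abca13 and Mir1957a.

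The members were scattered over the genome. The 69 with a position in GENCODE M21 (GRCm38) lie on 19 chromosomes, 11 of them on chromosome 11 and 8 on chromosome 1. Selp spans chr1:164115264-164150026, Reps2 chrX:162411954-162643649 and Tmem229b chr12:78961795-79007627. Only 2 pairs of members that follow each other lie within a megabase: Atp6v0a4 and Clec2l, 538483 bases apart on chromosome 6, and Oit3 and Spock2, 664441 bases apart on chromosome 10.

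Genes beside the members were called in both directions. The nearest tested gene on each side, 138 genes at a median distance of 26014 bases, gave 41 higher and 41 lower in Hb+NTR1 against Hb, 59.4% called beside 62.3% of all tested genes. The 41 higher include Gm35507, which met the level limits of the members, so its rise was fixed and its call is no evidence. Against control, which shares the Hb+NTR1 libraries, 43 were higher and 46 lower, 64.5% beside 63.6%. The 46 neighbours within 10000 bases gave 14 higher and 18 lower in each of these comparisons, 69.6% called, with 30.4% higher and a median log2 change of -0.07 against Hb. In Hb against control 2 of the 138 were higher and 1 lower, 2.17% beside 3.65%.

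Ereg, epiregulin, an EGF receptor ligand that neighbours Areg, was higher together with it. Ereg had 8.57, 7.09 and 7.92 CPM in control, 7.53, 7.80 and 9.75 in Hb and 36.9, 38.7 and 49.5 in Hb+NTR1. It rose 4.91-fold against Hb (log2 2.30 ± 0.13, adjusted p = 4.60e-13), from an expressed level rather than from silence. Stk17b, a death-associated kinase beside Hecw2, went from 27.6 to 85.9 CPM (log2 1.62 ± 0.08). Slc25a18, a mitochondrial glutamate carrier beside Cecr2, went from 0.621 to 1.98 CPM (log2 1.64 ± 0.41). Being low in Hb, Slc25a18 may have passed the filter on low counts through Hb+NTR1, so nothing is read from its call. Gm35507, beside Cd53, was higher by more (7.99-fold against Hb), itself met the level limits, which fix its rise, and was left out by its symbol.

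Other members sat beside genes that fell. Grb10, an imprinted adaptor that restrains insulin signalling, neighbours Cobl and fell from 824 ± 42.2 to 163 ± 8.93 CPM (log2 -2.36 ± 0.07, adjusted p = 1.34e-18). Chst3, a sulfotransferase of chondroitin, neighbours Spock2 and fell from 2.93 to 0.446 CPM (log2 -2.71 ± 0.34). Gm35019 beside Grhl2 fell from 54.6 to 18.1 CPM, and Gm14328, which overlaps Cfap53, from 2.63 to 0.823. A member that was on could therefore lie next to a gene that was higher, lower or not called.

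**Figure D2:**
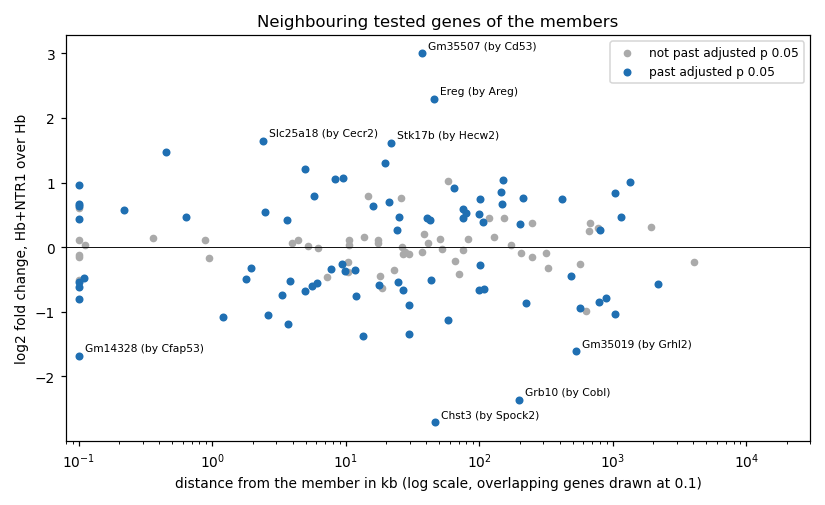
Log2 fold change in Hb+NTR1 over Hb of the nearest tested gene on each side of a member, against its distance in kilobases on a log scale, with overlapping genes drawn at 0.1. Each dot is 1 of 138 genes, coloured where it passed an adjusted p of 0.05, and the 41 higher and 41 lower genes occur at all distances, with Ereg and Gm35507 highest and Grb10 and Chst3 lowest. The rise of Gm35507 was fixed, since it met the level limits of the members.

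Some members share exon sequence with another gene, and without a stated strand setting their reads cannot be fully assigned. In GENCODE M21 the exons of 18 members overlap those of 21 partners and the exons of the other 52 matched no other gene or had no annotation. Of the 8 partners that were tested against Hb, 3 were higher, 2 lower and 3 not past the threshold. Among all tested genes 30.7% were higher and 31.6% lower, so nothing is read from the count of partners. Srrm4 opposite Srrm4os went from 11.2 to 22.2 CPM (log2 0.96 ± 0.13), Sgsh opposite Card14 from 12 to 19.3 (log2 0.67 ± 0.14) and Plbd2 opposite Sds from 94.1 to 129. Exosc5 opposite Tmem91 fell from 21.1 to 12.3 CPM, and Zbtb37 opposite Serpinc1 from 40.4 to 28.1. The 2 overlapping antisense transcripts of Selp had at most 1 count in any library.

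Relatives of the members, taken as genes whose symbol has the same stem and another number, were often expressed throughout. Of 205 such genes 86 were tested, belonging to 21 members. Against Hb 32 were higher and 27 lower, 68.6% called beside 62.3% of all tested genes, and against control 31 and 26, 66.3% beside 63.6%. Dusp23, Gpr39 and Gpr160, among the 32 higher, passed the filter on low counts only with the Hb+NTR1 libraries, so their calls are no evidence. Reps1, the paralogue of Reps2, had 94.4 ± 5.50 CPM in Hb and 97.8 ± 0.728 in Hb+NTR1 (log2 0.03 ± 0.07, adjusted p = 0.735), a difference within the replicate spread. Nr4a1 and Nr4a2, relatives of Nr4a3, rose from 9.47 to 16.3 and from 6.76 to 9.12 CPM (log2 0.76 ± 0.14 and 0.40 ± 0.16, adjusted p = 7.43e-05 and 0.0327).

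Gsta3 and Gsta4 differed in direction, but the rule fixed the rise of Gsta3, as it did that of Fscn2. Only the changes of their relatives Gsta4 and Fscn1 are therefore read. Gsta4, the major glutathione transferase for the aldehyde 4-hydroxynonenal, had 90.3, 105 and 114 CPM in control, 236, 302 and 254 in Hb and 28.2, 29.3 and 27.2 in Hb+NTR1. It rose with oxyhemoglobin alone (adjusted p = 4.77e-09) and was 9.51-fold lower in Hb+NTR1 than in Hb (log2 -3.25 ± 0.10, adjusted p = 9.85e-18). Gsta3, near silent in both groups where Gsta4 was high, averaged 3.96 ± 0.626 CPM in Hb+NTR1. Likewise Fscn1, the widely expressed fascin, fell from 363 to 135 CPM (log2 -1.45 ± 0.08) while the photoreceptor form Fscn2 averaged 1.48 ± 0.171.

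Other families differed from each other. Of the Atp6v0a stem, 2 of 2 tested relatives were higher against Hb. Atp6v0a1, the neuronal form of the proton pump subunit, rose from 76.4 to 230 CPM (log2 1.57 ± 0.08) beside Atp6v0a4. Atp6v0a2 rose from 69.0 to 96.4 CPM (log2 0.46 ± 0.07). The Dusp and Gpr stems went both ways. Dusp5 and Dusp4, phosphatases of ERK signalling, rose from 11.3 to 45.4 and from 20.6 to 57.9 CPM (log2 1.98 ± 0.11 and 1.46 ± 0.09) beside Dusp18, but Dusp8 and Dusp9 fell from 29.9 to 12.6 and from 15.9 to 7.65 CPM (log2 -1.27 ± 0.11 and -1.08 ± 0.15). Of 16 tested genes of the Dusp stem 6 were higher, 5 lower and 5 not past the threshold against Hb. The 6 higher include Dusp23, whose call is no evidence, since it passed the filter only with Hb+NTR1. Among receptors that share the stem of Gpr174 but need not be close relatives, Gpr173 fell from 16.6 to 4.64 CPM and Gpr135 from 12.3 to 4.10, while Gpr146 rose from 6.12 to 12 CPM and Gpr107 from 40.4 to 68.6. Of 21 tested genes of that stem 8 were higher, 7 lower and 6 not past the threshold. Gpr39 and Gpr160, among the 8 higher, passed the filter on low counts only with the Hb+NTR1 libraries, so their calls are no evidence.

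**Figure D3:**
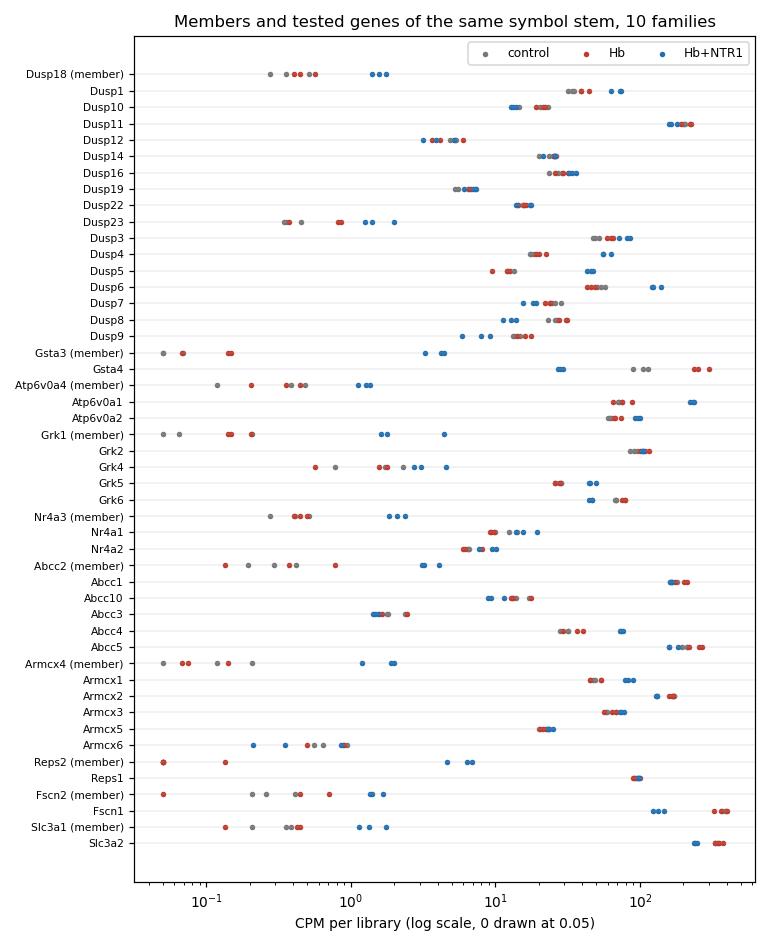
CPM per library on a log scale of 10 members and of the tested genes of the same symbol stem, with 0 drawn at 0.05. Each dot is a library; the members sit at or below about 10 CPM in Hb+NTR1 and under 1 CPM elsewhere, while relatives such as Reps1 near 95 CPM were present in all 9 libraries.

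**Figure D4:**
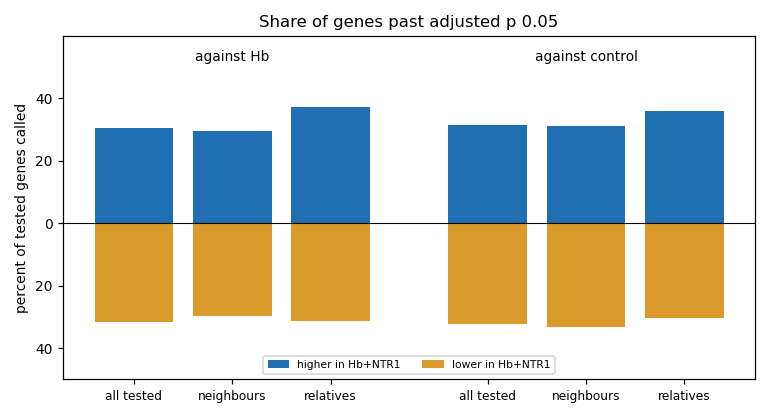
Percent of tested genes that passed an adjusted p of 0.05 in Hb+NTR1 against Hb and against control, above 0 for higher and below 0 for lower, for all 13810 tested genes, the 138 neighbours and the 86 relatives. The bars of neighbours are close to those of all genes, with 29.7% and 30.7% higher against Hb, and the bar of relatives is at 37.2%. The bars for higher genes include genes that could pass the filter on low counts through Hb+NTR1 alone, whose calls are no evidence.

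Genes that work with REPS2 in endocytosis were expressed in all groups and changed both ways. Of 26 listed genes, all tested, 7 were higher, 10 lower and 9 not past the threshold in Hb+NTR1 against Hb, with the same counts against control, which shares the Hb+NTR1 libraries. Against Hb, 30.7% of all tested genes were higher and 31.6% lower. Egfr, a receptor whose uptake the complex serves, fell from 12.4 to 6.30 CPM (log2 -1.01 ± 0.15, adjusted p = 2.39e-06), and Epn3, an epsin of coated pits, from 14.7 to 6.86 (log2 -1.13 ± 0.13). Cltc, the clathrin heavy chain, rose from 849 to 1514 CPM (log2 0.81 ± 0.06). Rgl3, a Ral activator, fell from 7.80 to 4.50 CPM.

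Regulators of silent chromatin were likewise split. Of 41 genes of DNA methylation, Polycomb and histone deacetylation, 9 were higher, 17 lower and 15 not past the threshold against Hb, and 11, 19 and 11 against control. Among all tested genes 30.7% were higher and 31.6% lower against Hb, and 31.4% and 32.2% against control. Hdac9 fell from 2.66 to 0.566 CPM (log2 -2.24 ± 0.33, adjusted p = 2.96e-06) and Hdac7 from 209 to 103 (log2 -1.04 ± 0.07), both deacetylases of the same class. Among histone demethylases that remove the Polycomb mark, Kdm6a rose from 52.2 to 86.9 CPM (log2 0.71 ± 0.09) and Kdm6b fell from 57.4 to 33.2 (log2 -0.81 ± 0.09). Dnmt1, which maintains DNA methylation, had 459 and 458 CPM (log2 -0.03 ± 0.06, adjusted p = 0.732), and its partner Uhrf1 fell from 344 to 238. The median log2 change of the list was -0.14 against Hb.

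Nuclear receptors and their targets gave no single direction. Of 12 tested receptors for steroids and lipids, 5 were higher and 4 lower against Hb, and 5 and 5 against control. Nr1h4, the bile acid receptor, rose from 0.904 to 6.28 CPM (log2 2.74 ± 0.37). Rarg, a retinoic acid receptor, fell from 165 to 67.1 CPM (log2 -1.32 ± 0.07) and Thra, a thyroid hormone receptor, from 48.7 to 26.8. Of 11 tested glucocorticoid receptor targets, 6 were higher and 3 lower against Hb, and 5 and 3 against control. Mt2, a metallothionein, went from 0.236 to 1.30 CPM and Errfi1 from 28.6 to 54.0, while Angptl4 fell from 14.5 to 3.76 and Tsc22d3 from 31.0 to 11.9. Mt2, near the floor in Hb, may have passed the filter on low counts through Hb+NTR1, so nothing is read from its call. For these lists, too, both directions were common among all genes, at 30.7% higher and 31.6% lower.

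Promoter sequence was matched for 49 of the 70 members, and the set was close to the genome in composition. A CpG ratio of at least 0.6 together with at least 50% GC was met by 19 of 49, or 38.8%, beside 34.1% of 27025 promoters of the same length. The median CpG ratio was 0.446 beside 0.389, and the median GC content 55.0% beside 52.7%. The ratio ran from 0 to 0.992 among members, so promoters without a CG pair and CpG islands were both present. The SP1 core GGGCGG, searched on both strands, was in 46.9% of member promoters and in 35.9% of all.

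Motifs of inducible factors were present in a minority. The AP-1 core TGANTCA on either strand was in 12.2% of member promoters and 7.93% of all, and the antioxidant element core TGACNNNGC on either strand in 16.3% and 12.5%. The cyclic AMP element TGACGTCA was in 2.04% and 1.88%, TATAAA on the strand of the gene in 6.12% and 8.88%, the E-box CACGTG in 4.08% and 7.24%, the ATF4 and CEBP composite TGATGNAA in 4.08% and 4.06% and the TEAD core CATTCC in 18.4% and 14.6%. The searches did not exclude sites that overlap, and no test was made. The promoters of Areg and Gsta3 are shown because they carry several of these elements or contrast with a family member that fell. Areg lies at chr5:91139349-91139648 on the plus strand and has TGACGTCA, 2 SP1 cores and TATAAA in capitals. Gsta3 lies at chr1:21240335-21240634 on the plus strand and has the antioxidant element core in capitals.
Areg: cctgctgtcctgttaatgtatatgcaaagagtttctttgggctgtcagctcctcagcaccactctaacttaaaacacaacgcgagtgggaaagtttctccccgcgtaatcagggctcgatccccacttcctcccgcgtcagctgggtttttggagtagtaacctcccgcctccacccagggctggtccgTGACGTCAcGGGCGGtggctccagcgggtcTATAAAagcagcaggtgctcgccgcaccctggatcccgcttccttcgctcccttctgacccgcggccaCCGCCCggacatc
Gsta3: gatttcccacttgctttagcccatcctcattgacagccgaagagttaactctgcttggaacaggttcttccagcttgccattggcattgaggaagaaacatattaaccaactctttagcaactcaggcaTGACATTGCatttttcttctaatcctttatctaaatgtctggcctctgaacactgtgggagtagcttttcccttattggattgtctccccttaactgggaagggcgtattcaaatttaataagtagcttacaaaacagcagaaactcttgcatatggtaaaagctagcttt

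The Areg promoter had 59.3% GC and a CpG ratio of 0.819, and the Gsta3 promoter 41.0% and 0.160. The antioxidant element core was also found before the start of Abcc2, Armcx4, Hecw2, Mep1a, Nr4a3 and Rsad2 and after that of Dnah2, and the AP-1 core before the start of Cdk15, Dnah2, Lipn, Rsad2 and Slc3a1 besides Selp. Whether these letters bear on the levels of the genes was not tested.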

How the data were processed

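Poly(A) RNA of 9 libraries was sequenced, 3 each of control, Hb and Hb+NTR1. Per the submitters' processing notes, HTSeq 0.10.0, HISAT2 2.1.0 and bcl2fastq 2.19.1.403 were used with the genome build GRCm38. The release of the annotation, the use of strand and the treatment of reads with several matches were not given in the sources used here. The authors deposited raw counts per gene, not normalised, in 54232 rows, of which 98 exact repeats were removed here. The authors' deposited table of Hb+NTR1 against control gives each gene's log2 fold change and its raw and adjusted p-value; the sources used here name no test for it. Columns that begin with N were taken as Hb+NTR1 by group.

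CPM used column totals. Counts were tested in R 4.3.3 with edgeR 4.0.16: filterByExpr with a minimum count of 10 left 13810 genes, libraries were scaled by TMM, and 1 quasi-likelihood fit over all 9 libraries, robust and two-sided, gave log2 fold changes with SE and adjusted p-values per comparison over all genes tested. The SE was derived from the test, as the absolute log2 fold change over the square root of the quasi-likelihood F statistic. All 70 members passed the filter, which they could do through Hb+NTR1 alone. The fit was tested on simulated data. Counting intervals are exact, at 95%, on counts summed over the libraries of a group, and leave out the spread between libraries. DESeq2 1.42.0, other scalings, filters and limits, only the 6 libraries of a comparison, a replicate block, protein-coding neighbours and each library left out in turn were tried. Same-numbered control and Hb libraries did not deviate together (correlations 0.0953, -0.0226 and -0.0488), so replicate numbers were not used as pairs. Promoters came from RefSeq (GRCm38.p6) and positions from GENCODE M21.

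The members, the gene lists, the relatives and the alternatives were chosen with earlier results of these data known, and roles were assigned by hand. Named were the 20 members with the highest mean in Hb+NTR1, the markers Reps2, Tmem229b and Selp, the 5 genes nearest each side of each limit, the 8 neighbours and 8 relatives with the largest changes called in both Hb+NTR1 comparisons, and up to 4 called genes per list; some genes picked by this rule are not reported here, and other genes were named for their class after their values were seen.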

Additional observations from a re-analysis of the deposited data

How the results depend on the processing

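The number of members depended on the limits. It was 34 with 0.25 CPM and 179 with 1 CPM as the limit in control and Hb, and 228 with 0.5 CPM and 20 with 2 CPM as the limit in Hb+NTR1. It was 65 with TMM-scaled CPM, all of them members, and 65 to 95 with 1 library left out, of which at least 62 were members. Genes called in Hb against control numbered 504 and ranged from 285 to 1125 with 1 library left out, the lowest without control replicate 2 (285; 286 without control replicate 3, 315 without control replicate 1) and the highest without Hb replicate 2. With a replicate block there were 674 genes called in Hb against control (504 without it), 8836 genes called in Hb+NTR1 against Hb (8607 without it) and 9000 genes called in Hb+NTR1 against control (8782 without it). The block changed the call of no gene named in the text. The other counts of genes, neighbours and relatives called stayed within 1.5 times their value under every alternative run, and no gene named in the text reversed; Il6 lost its call under some. The causes were not tested. Low counts limit all member values, since 1 CPM is about 14 reads.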
